A study of Mus musculus with 34 samples.

Results

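Interferon-stimulated effector genes are the genes that carry out the antiviral response: they tag proteins, sense viral RNA, block virus entry or release, attack vacuoles, or process antigens. A list of 44 such mouse genes was followed by symbol through 17515 RNA rows and through the promoter peaks of H3K4me3, KDM5A and KDM5C. An RNA row was found for 43 of the 44 (there was none for Ddx60), and 41 had enough signal to be tested, which means a log2 value of at least 1 in at least 2 libraries. Oas3 and Oasl1 did not reach it. None of the 41 passed through a single group only.

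The cells were 3T3-L1, a mouse preadipocyte line that turns into adipocytes when confluent cultures are given dexamethasone, insulin, IBMX and fetal bovine serum. The lentiviral conditions compared were 2: control shLuc, and shKdm5ABC, which combines shRNAs against Kdm5a, Kdm5b and Kdm5c. Virus was added for 24 hours with 6 µg/mL polybrene, 4 days before induction, and polyA RNA was taken at day 0 (post-confluent, before induction), at 4 hours and at day 2, with 2 libraries in each of the 6 groups. The same 6 conditions were used for H3K4me3 chromatin immunoprecipitation. KDM5A was profiled at the same times, and KDM5C at day 2, in 3T3-L1 cells for which no transduction is stated. All RNA samples had received virus, so an effect of the knockdown and a difference in the response to the 2 viral preparations cannot be told apart. The labels do not say whether each cell took up all constructs, nor whether the replicates, numbered as experiments, were separate cultures, so p-values measure the spread between these samples. In bulk RNA, fewer cells expressing a gene and less RNA per cell cannot be told apart.

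Type I interferons bind the IFNAR receptor, whose kinases JAK1 and TYK2 phosphorylate STAT proteins. The complex ISGF3, which contains IRF9, binds the interferon-stimulated response element, a repeat of GAAA upstream of most effector genes. Interferon gamma acts on the GAS element instead, and the GTPases of the IRG and GBP families and the immunoproteasome genes answer to both. KDM5 enzymes remove methyl groups from lysine 4 of histone H3, a mark of active promoters.

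The stretches below show the response element in the upstream sequence of the members described most closely here, as far as a match lay before the start site. They come from RefSeq promoter windows (250 bases before to 50 after the start site, build GRCm38.p6), are written 5′ to 3′ on the strand of the gene, and have each match to the motif in capitals. The motif searched was GAAA, any 2 bases, GAAA, or its reverse complement TTTC, any 2 bases, TTTC, called the ISRE core below. Matches can overlap.
Isg15 (chr4:156200860-156200911, minus strand): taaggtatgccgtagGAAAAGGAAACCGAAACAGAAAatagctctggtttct
Ifit1 (chr19:34640770-34640828, plus strand): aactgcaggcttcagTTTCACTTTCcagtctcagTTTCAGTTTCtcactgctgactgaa
Ifit3 (chr19:34583358-34583431, plus strand): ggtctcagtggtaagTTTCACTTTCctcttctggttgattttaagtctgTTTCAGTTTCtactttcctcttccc
Rsad2 (chr12:26456548-26456587, minus strand): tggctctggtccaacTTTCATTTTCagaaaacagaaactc
Bst2 (chr8:71537572-71537617, minus strand): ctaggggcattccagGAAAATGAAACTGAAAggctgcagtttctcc
Irgm1 (chr11:48871421-48871465, minus strand): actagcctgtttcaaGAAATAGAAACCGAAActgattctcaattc
Igtp (chr11:58199507-58199546, plus strand): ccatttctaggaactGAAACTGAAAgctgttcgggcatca
Gbp2 (chr3:142620589-142620628, plus strand): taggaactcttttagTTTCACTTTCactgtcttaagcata
Apol9a (chr15:77411109-77411154, minus strand): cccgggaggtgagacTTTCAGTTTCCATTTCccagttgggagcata
Apol9b (chr15:77729020-77729065, plus strand): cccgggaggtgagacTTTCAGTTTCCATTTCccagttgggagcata

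The ISRE core, read on both strands over the whole window, was present for 17 of the 34 members that have a window, or 50%, against 3.99% of 27025 genes (3.44% of 32851 windows). The shorter GAS motif TTCNNNGAA, which reads as itself on both strands and can overlap the first motif, was present for 9 of 34 members, or 26.5%, against 9.55% of genes. The stretches of the neighbouring paralogs Apol9a and Apol9b are identical. These lie before the start sites and do not show how RNA reads were assigned. Reads from such a pair may be split uncertainly, which was not tested. The same caution holds for Oas1a and Oas1b, and within the Ifit, Irgm and Gbp families. Among tested members, the 15 with an ISRE core had a median knockdown difference at day 0 of -1.62 on the log2 scale, and the 16 without had -0.86. A match of letters is a description of this window and not a measured binding site.

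The targets of the knockdown were lower in every shKdm5ABC group. At day 0 Kdm5a stood at 7.89 and 8.03 in shLuc and at 7.05 and 6.90 in shKdm5ABC libraries, and Kdm5c fell most, to 38.0% of shLuc. Of the markers, all 9 of preadipocytes and all 7 of adipocytes were tested, whereas Ptprc, Adgre1 and Itgam of white blood cells lay under 1 in all 12 libraries, Cd3e and the dendritic marker Siglech had no row, and the epithelial genes Krt8 and Cdh1 lay under 1. The summed level of the 8 white blood cell genes with a row ran from 93.9 to 120 tags per kb in shLuc and from 163 to 172 in shKdm5ABC at day 0, higher where the members were lower. That of the preadipocyte genes ran from 42465 to 51806 and from 37034 to 41412. Cd68 was higher in shKdm5ABC at day 0, at 282% of shLuc (adjusted p 0.0144), and of the adipocyte markers, with a median difference of 1.09, Cebpa was higher (adjusted p 0.0466). From day 0 to day 2 in shLuc all 7 adipocyte markers rose and 8 of 9 preadipocyte markers fell, over the same interval as the members. Of all transcripts 27.1% were called higher and 27.8% lower over it. Cd68 and Cebpa were named after their values were seen. The part of these markers in the results below was not tested.

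At day 0 in shLuc cells the members spanned 7.64 log2 units of RNA level per kb of transcript, from Oas1a at 4.63 to Ifitm3 at 12.27, and 18 of 41 had a mean over 8. Their median was 7.77, against 6.79 over all tested transcripts. By day 2 the median was 3.10 in shLuc and 3.71 in shKdm5ABC, under the 6.71 and 6.74 of all tested transcripts. In the day 2 shLuc libraries Oas1a, Rsad2 and Cmpk2 had means under 1.

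**Figure D1:**
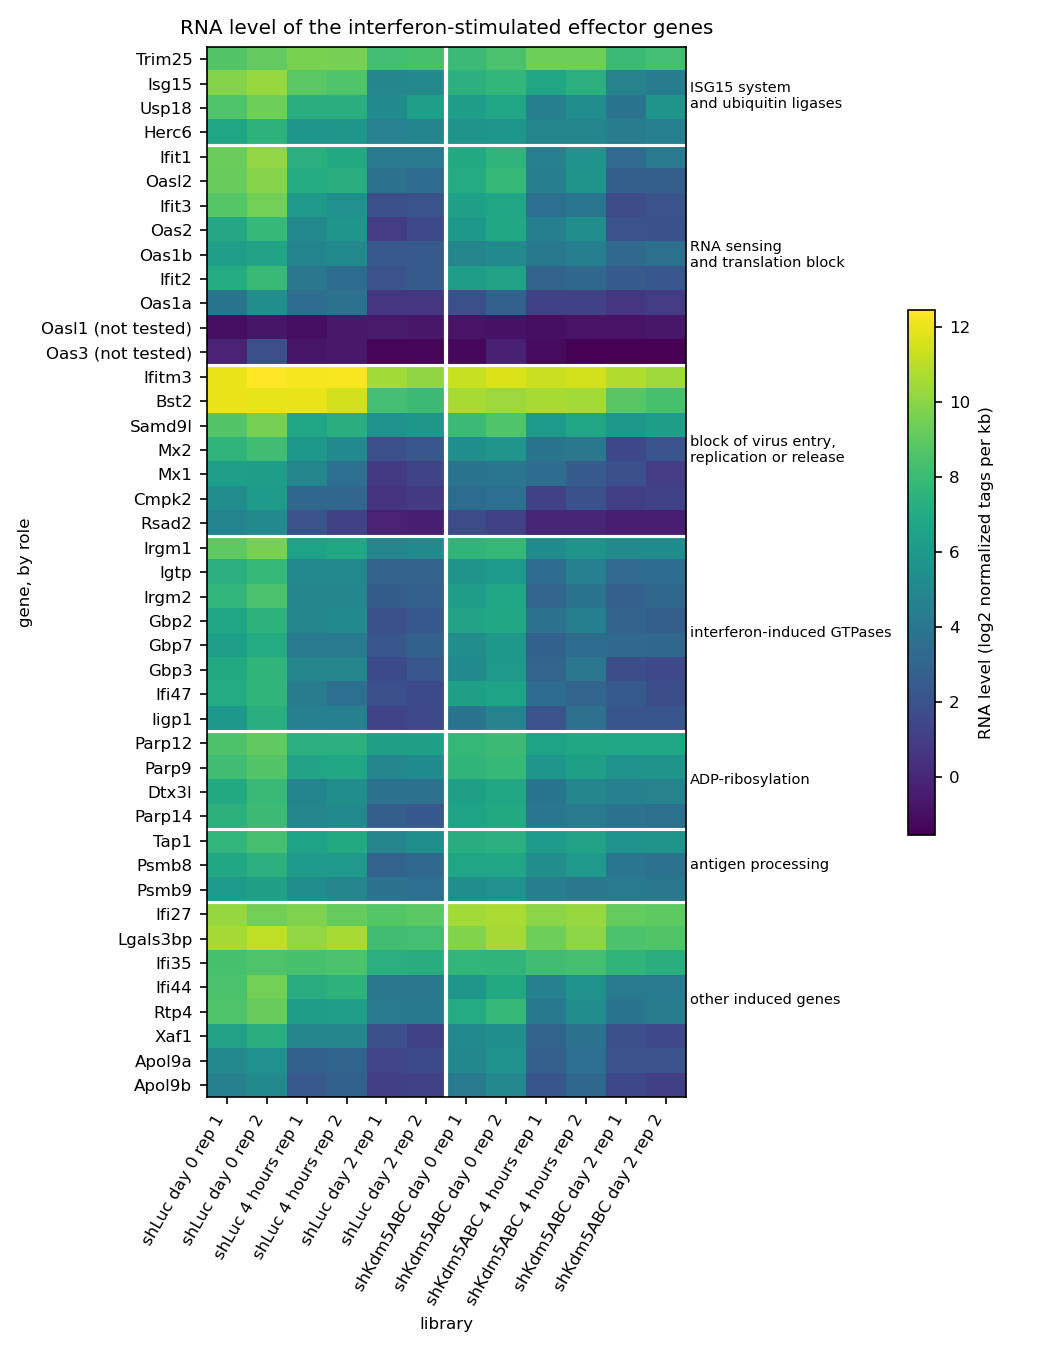
Each cell is the RNA level (log2 normalized tags per kb, colour) of 1 of the 43 members with a row (vertical axis, by role) in 1 of the 12 libraries (horizontal axis). Levels are highest at day 0 in shLuc, where the median member stood at 7.77, and lowest at day 2 in both conditions. Ifitm3 stays bright throughout, while Bst2 falls to 6.98% of its day 0 level by day 2 in shLuc.

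Before induction most members had less RNA after the triple knockdown than in control cells. Of 41 tested, 18 fell and 0 rose at a Benjamini-Hochberg adjusted p under 0.05 over all 13534 transcripts, where 0.901% of transcripts were called lower and 0.606% higher. The median member difference was -1.34 on the log2 scale and that of all transcripts 0.01, and 39 of 41 means were lower. The libraries did not overlap for 36 members that were lower (20.1% of all transcripts) and for 1 that was higher (22.0%). With the replicate number as a block 35 members fell, and 5.05% of all transcripts. Without the filter on low values 10 fell, of 99 transcripts in all, and in a fit of these 2 groups alone 3, of 7 in all (0.0517%). Within each experiment alone, 40 members were lower in the first and 39 in the second. In both, 39 members were lower, as were 35.1% of all transcripts. These counts use the same 4 libraries as the test above. The number of calls rests on few libraries: 2 were left without shLuc replicate 2, 4 without either shKdm5ABC library and 13 without shLuc replicate 1. Isg15 and Rsad2 remained called with each of the 4 libraries left out (highest adjusted p 0.0242 and 0.0237), Ifit3 with 3 of 4, and the other 15 with at most 2. The targets bear the same limit, with Kdm5a and Kdm5c called with 2 of 4 libraries left out and Kdm5b with 0 of 4.

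The ISG15 system links the ubiquitin-like protein ISG15 to other proteins: HERC6 is its mouse ligase, USP18 takes it off again and damps the receptor, and TRIM25 is a ubiquitin ligase that activates the RNA sensor RIG-I. Isg15 measured 9.89 and 10.34 in the shLuc libraries and 7.39 and 7.73 in the shKdm5ABC libraries at day 0. The 2 groups lay far apart, and the difference of -2.56 (SE 0.23, limma adjusted p 0.00164) left 17.0% of the shLuc level. Herc6 fell to 39.4% (adjusted p 0.0187). Usp18 was at 17.3% of shLuc, but with an SE of 0.58 it did not pass (adjusted p 0.0671). Trim25 measured 8.71 and 9.12 against 8.01 and 8.47, groups that do not overlap but lie close together (-0.68, SE 0.18, adjusted p 0.115, and 0.00763 with the block).

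Among the genes that sense viral RNA or stop its translation, 5 of 7 tested fell at day 0, with a median of -2.08. IFIT proteins bind viral RNA ends and keep them from ribosomes, and OAS proteins make the second messenger that switches on RNase L. Ifit3 measured 8.76 and 9.48 in shLuc and 6.49 and 6.75 in shKdm5ABC libraries. Its difference was -2.50 (SE 0.28, adjusted p 0.00385). Ifit1 was at 9.26 and 10.22 against 6.97 and 7.61. The spread between its shLuc libraries was the wider one, and 18.3% of the level remained (adjusted p 0.0222). Oasl2, an OAS-like protein without enzyme activity of the OAS kind, was at 9.20 and 9.93 against 7.11 and 7.86 (adjusted p 0.0350). Oas1a and Oas1b fell as well. The 2 not past the threshold were Ifit2 (-1.14) and Oas2 (-0.98). Untested Oas3 measured 1.88 in shLuc replicate 2 and between -1.53 and -0.21 in the other 11 libraries.

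The genes that block virus entry, replication or release had the lowest median of the roles, -2.24, and 5 of 7 fell. Rsad2 encodes viperin, which makes a chain-terminating nucleotide together with the neighbouring gene Cmpk2. It measured 4.79 and 5.07 in shLuc and 1.73 and 1.25 in shKdm5ABC libraries. The difference of -3.44 (SE 0.31, adjusted p 0.00164) was the lowest of the 41 and left 9.23%, and Cmpk2 fell to 21.2%. Bst2, or tetherin, which holds budding virions on the cell surface, was at 12.07 and 11.98 against 10.66 and 10.37. Its libraries agreed closely, and the difference was -1.51 (SE 0.19, adjusted p 0.00601). Mx1 and Mx2, dynamin-like GTPases that trap viral nucleoproteins, fell to 18.6% and 20.6%. Ifitm3, which stops fusion in endosomes, had the highest level of all members, 12.07 and 12.48 against 11.32 and 11.73. The groups did not overlap, and the difference of -0.75 was not past the threshold (adjusted p 0.139, and 0.0344 with the block).

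Of 8 interferon-induced GTPases, which attack the vacuoles of intracellular pathogens, Irgm1, Irgm2 and Igtp fell. Irgm1 measured 9.02 and 9.61 in shLuc and 7.58 and 7.81 in shKdm5ABC libraries (-1.62, SE 0.22, adjusted p 0.00823). Igtp was at 7.35 and 7.81 against 5.74 and 6.12 (adjusted p 0.0402). These groups did not overlap, whereas those of Gbp2 did, at 6.78 and 7.55 against 6.63 and 6.88 (-0.41, SE 0.30, adjusted p 0.691). Iigp1 was at 19.8% of shLuc without passing (adjusted p 0.0637).

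ADP-ribosylation and antigen processing were nearer to shLuc. PARP9 and DTX3L form a complex that modifies ubiquitin, and PARP12 and PARP14 are mono-ADP-ribosyltransferases. Of these 4 only Parp12 fell, from 8.57 and 9.04 to 7.78 and 8.05 (-0.89, SE 0.17, adjusted p 0.0368). Parp9 measured 8.19 and 8.73 against 7.63 and 7.84, without overlap (-0.72, adjusted p 0.192, and 0.00704 with the block). None of the 3 antigen-processing genes passed, with a median of -0.69. For Psmb8, an immunoproteasome subunit, the libraries read 6.89 and 7.44 against 6.77 and 6.76. Tap1, a subunit of the peptide transporter into the endoplasmic reticulum, read 7.66 and 8.32 against 7.19 and 7.42 (adjusted p 0.303, and 0.0148 with the block).

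The remaining induced genes went several ways. Ifi44 and Ifi35 fell, Ifi35 from 8.40 and 8.64 to 7.68 and 7.65 (-0.85, SE 0.14, adjusted p 0.0181). Ifi27, a mitochondrial protein gene, was the member with libraries that were higher without overlap: 10.25 and 9.51 in shLuc and 10.54 and 10.68 in shKdm5ABC (0.73, SE 0.24, adjusted p 0.219). Apol9a was at 5.05 and 5.52 against 5.02 and 5.64, and Apol9b at 4.55 and 5.16 against 4.25 and 5.07. Both pairs of groups overlap almost fully (adjusted p 0.990 and 0.927). Their upstream stretches hold the ISRE core, as do those of Isg15 and Ifit1. Lgals3bp, a secreted galectin-binding glycoprotein, read 10.57 and 11.15 against 9.84 and 10.60 (adjusted p 0.394, and 0.0198 with the block).

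**Figure D2:**
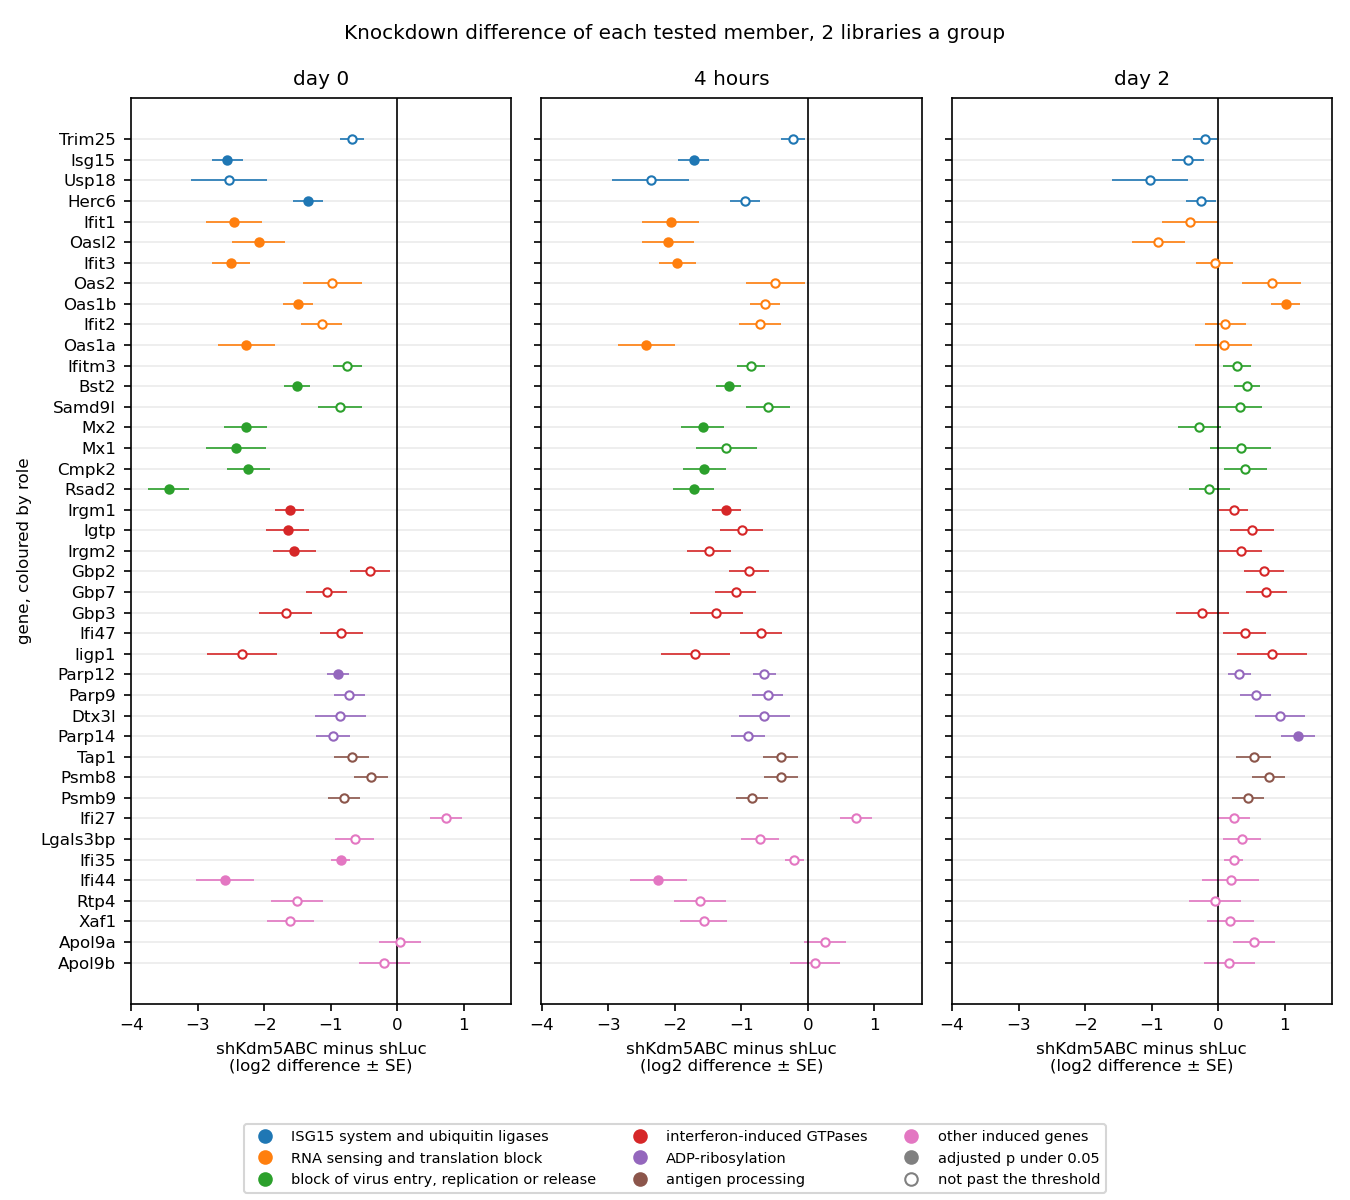
Points are the difference of shKdm5ABC minus shLuc for each of 41 tested members (log2 scale, horizontal) with its SE, at day 0, 4 hours and day 2, coloured by role and filled where adjusted p is under 0.05. At day 0 and 4 hours 39 and 38 points lie left of 0, and at day 2 30 lie right of it.

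At 4 hours after induction the knockdown difference had the same sign for most members. Of 41, 11 fell and 0 rose, against 0.643% and 0.798% of transcripts called lower and higher, and the median was -0.94. The libraries did not overlap for 34 members that were lower (19.3%) and for 1 that was higher (19.4%). A block brought the count to 29 (5.10% of transcripts were lower in that fit) and quantile normalization to 7 (0.465%). No filter on low values brought it to 3 and a fit of these groups alone to 0 (0%). Without shLuc replicate 1 or shKdm5ABC replicate 1 it was 0, and without shLuc or shKdm5ABC replicate 2 it was 4 and 2. The members called were Isg15, Ifit1, Ifit3, Oas1a, Oasl2, Rsad2, Cmpk2, Bst2, Mx2, Irgm1 and Ifi44.

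Isg15 measured 8.89 and 8.60 in the 4 hour shLuc libraries and 6.72 and 7.34 in the shKdm5ABC libraries, and 30.5% of the shLuc level was left (adjusted p 0.0111). Ifit3 was at 5.97 and 5.50 against 3.60 and 3.96 (-1.96, SE 0.28, adjusted p 0.0118). Bst2 was at 12.02 and 11.52 against 10.64 and 10.52 (-1.19, SE 0.19, adjusted p 0.0185). These libraries stayed apart at this time, as did those of Irgm1, at 6.61 and 6.80 against 5.26 and 5.70. Rsad2 read 2.14 and 1.22 against -0.05 and -0.02. The knockdown libraries of this gene had come close to the lowest values it takes in the table. Igtp, which had fallen at day 0, read 5.06 and 5.04 against 3.49 and 4.63 (adjusted p 0.205, and 0.0350 with the block). Gbp2, Lgals3bp, Ifitm3, Parp9 and Parp12 passed with the block too (adjusted p 0.0336, 0.0125, 0.0195, 0.0173 and 0.00786). Ifi27 was again higher without overlap, at 9.74 and 9.15 against 10.05 and 10.30 (0.73, adjusted p 0.221).

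At day 2 the differences were of the other sign for most members and small. Parp14 and Oas1b rose and 0 members fell, where 5.66% of transcripts were called higher and 3.34% lower, so the share of members called (2 of 41) was near the background. The median was 0.32, 30 means were higher, and 22 members were higher without overlap, against 26.2% of all transcripts, and 5 were lower without overlap (27.1%). Parp14 measured 2.69 and 2.33 in shLuc and 3.78 and 3.64 in shKdm5ABC libraries (1.20, SE 0.25, adjusted p 0.0199). Oas1b was at 2.40 and 2.55 against 3.34 and 3.64 (1.01, SE 0.22, adjusted p 0.0232). Both are low levels on this scale. With the block 10 members rose and 1 fell, where 13.9% and 14.2% of transcripts did, among them Bst2, Gbp2, Psmb8, Tap1 and Parp9, which rose (adjusted p 0.00854, 0.0413, 0.0258, 0.0188 and 0.00973). No member passed after quantile normalization, in a fit of these groups alone, without shLuc replicate 2 or without shKdm5ABC replicate 1, and 1 passed without either other library.

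Isg15, Ifit1 and Oasl2 remained lower on the mean at day 2. Isg15 read 4.97 and 5.07 in shLuc and 4.74 and 4.40 in shKdm5ABC at day 2, Ifit1 4.24 and 4.19 against 3.39 and 4.18, and Oasl2 3.75 and 3.43 against 2.70 and 2.69. All 3 were still lower without overlap, but not past the threshold (adjusted p 0.268, 0.595 and 0.188). Ifit3 overlapped, at 1.87 and 2.05 against 1.71 and 2.10. The abundant Ifitm3 overlapped with a higher mean, at 10.52 and 10.16 against 10.83 and 10.40. Bst2 was higher without overlap, at 8.30 and 8.07 against 8.82 and 8.42, and passed with the block only (adjusted p 0.189 without it).

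Whether the knockdown difference itself changed with time was tested as an interaction. Between day 0 and 4 hours 0 of 41 members passed in limma, as did 0 of all 13534 transcripts (0%), and 4 members and 501 transcripts had an unadjusted p under 0.05, with 0 members passing with the block. Those 4 were Rsad2 (1.72), Isg15 (0.84), Oas1b (0.86) and Ifi35 (0.65). Between day 0 and day 2 the difference moved upward for 7 members and downward for 0, where 0.310% of transcripts moved upward. They were Rsad2 (3.30, SE 0.44), Oas1b (2.51), Ifit3 (2.45), Parp14 (2.17), Isg15 (2.10), Bst2 (1.94) and Irgm1 (1.85), with limma adjusted p-values from 0.0253 to 0.0478. The median over members was 1.51, and 40 of 41 were positive. The count was 31 with the block (7.67% of transcripts in either direction) and 0 without the filter on low values. It was 4 after quantile normalization (0.207%), 3 without the mean-variance trend (0.177%) and 2 in a fit of these groups alone (0.0665%). It was 6 without shKdm5ABC day 2 replicate 2, with 5 of the 7 (Bst2, Isg15, Oas1b, Parp14 and Rsad2) among them, and 0 without any other single library. These comparisons share their day 0 libraries with the ones above. At day 2 Rsad2, Ifit3, Oas1b and Parp14 were at low levels in both conditions, where values look moderated. The part of these low levels in the changes was not tested.

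In shLuc cells the list fell steeply after induction. There was no untransduced RNA sample, so decay of a response to the virus and differentiation cannot be told apart in this fall. By 4 hours 34 of 41 members had fallen and 1 had risen, against 21.6% and 20.7% of transcripts, and the median member was at 23.2% of its day 0 level. By day 2 all 41 had fallen and 0 had risen, against 27.8% and 27.1% of transcripts, and the median member was at 5.09%. Of the total fall on the log2 scale a median of 45.6% was present at 4 hours. The replicate block and quantile normalization left 41 lower at day 2.

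How much of the fall was present at 4 hours is given by role as a description, since no difference between roles was tested and their ranges overlap. The 4 ADP-ribosylation genes had between 51.3% and 63.6% of their log2 fall behind them at 4 hours and the GTPases a median of 56.1%, while antigen processing had 42.2% and the RNA-sensing genes 39.9% (25.5% to 72.4%). Ifit2, an RNA-sensing gene, had the highest share of all 41, with 72.4% of its fall and 7.01% of its level left at 4 hours. Ifit3 and Rsad2 were down to 9.60% and 10.5%. Isg15, by contrast, kept 38.7% at 4 hours and 2.93% at day 2. The values for the most abundant members were hardly lower at 4 hours: 83.6% of the day 0 level for Bst2, 102% for Ifitm3 and 74.0% for Lgals3bp, none past the threshold, before Bst2 reached 6.98% at day 2.

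Trim25 was the member that moved against the list. It measured 9.67 and 9.58 at 4 hours in shLuc, above 8.71 and 9.12 at day 0, and rose by 0.71 (SE 0.18, adjusted p 0.0101) before it fell to 8.26 and 8.42 at day 2. The rise was not past the threshold after quantile normalization (0.45, adjusted p 0.0587), without shLuc day 0 replicate 1 (0.50, adjusted p 0.0887) or without 4 hour replicate 1 (0.66, adjusted p 0.0555). In shKdm5ABC cells it rose by 1.16 (SE 0.18, adjusted p 5.39e-04), to 9.39 and 9.41. Ifi35 rose with it there, from 7.68 and 7.65 to 8.18 and 8.33 (0.59, SE 0.14, adjusted p 0.00660), whereas in shLuc it read 8.42 and 8.49 at 4 hours, inside the range of its day 0 libraries.

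In shKdm5ABC cells 33 members fell and 2 rose by 4 hours (23.7% and 22.4% of transcripts), and 39 fell and 0 rose by day 2 (23.1% and 22.0%). The 2 that did not fall by day 2 were Trim25 and Ifi35. The median day 2 difference was -2.41 against -4.30 in shLuc cells, from a lower start. Expressed per gene, the median shKdm5ABC level was 39.4% of shLuc at day 0, 52.2% at 4 hours and 125% at day 2. For the RNA-sensing genes these values were 23.6%, 25.7% and 106%, and for ADP-ribosylation 54.6%, 63.7% and 169%.

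**Figure D3:**
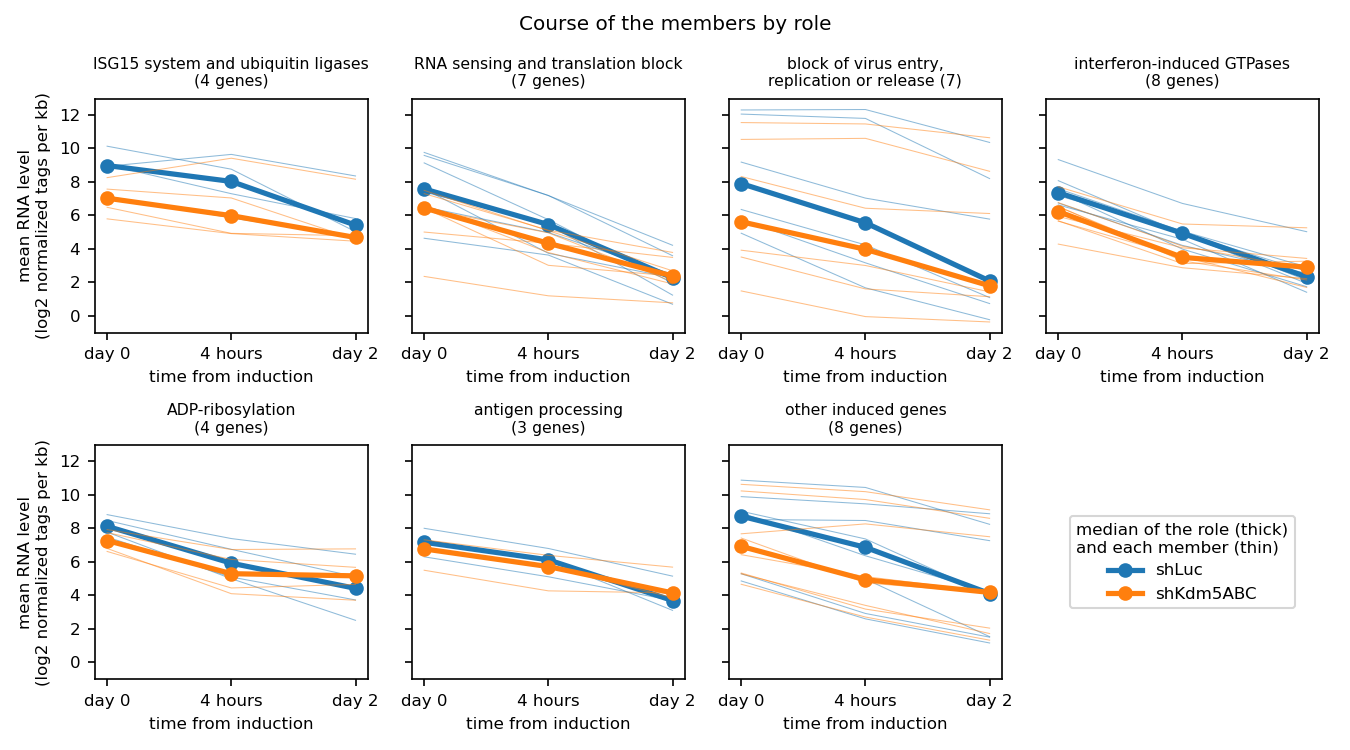
Thin lines are the mean RNA level (log2 normalized tags per kb, 2 libraries) of each tested member at day 0, 4 hours and day 2, and thick lines the median of the role, for shLuc and shKdm5ABC. The 2 conditions start apart and meet at day 2 in most panels, where the median member of shKdm5ABC was at 125% of shLuc.

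In some groups the replicate libraries differed in the level of the whole list. In shLuc at day 0, replicate 2 was above replicate 1 for 38 of 41 members with a median gap of 0.61, against 0.03 over all tested transcripts. The gap was 0.35 in shKdm5ABC at day 0 and 0.57 at 4 hours, with 37 and 35 members higher in replicate 2. The day 2 libraries of shKdm5ABC (20 of 41 higher) and the 4 hour libraries of shLuc (23 of 41, median 0.01) showed no such gap. In shLuc at day 2 the gap was 0.15. The members' median SD at day 0 in shLuc was 0.44, against 0.14 over all transcripts. In shKdm5ABC it was 0.27 against 0.15 at day 0 and 0.43 against 0.16 at 4 hours. The remaining groups were closer to all transcripts. They read 0.19 against 0.16 (shLuc 4 hours), 0.16 against 0.14 (shLuc day 2) and 0.14 against 0.16 (shKdm5ABC day 2). The tests pool the spread of all 6 groups. The cause of the gap was not tested.

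Of 46 further genes of the interferon pathway 37 were tested. The ligands gave no readable level: Ifnb1 stayed between -1.93 and -1.35 and Ifna4 between -3.44 and -3.23 in all 12 libraries, and Ifng did not reach the filter. At day 0, where 0.901% of transcripts were called lower and 0.606% higher, 5 pathway genes fell and 1 rose. They were the factors Stat2 and Irf7, the sensors Zbp1, Dhx58 and Eif2ak2, and, upward, the phosphatase Ptpn6, and the median over the 37 was -0.05. None of the 7 receptors and kinases passed between shKdm5ABC and shLuc at any time. With 1 library left out at day 0, Stat2 was called with 2 of 4 libraries, Irf7 and Zbp1 with 1 and Ptpn6 with 0, and at 4 hours Ptpn6 was called with 4 of 4 and Stat2 with 0.

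Irf7, the factor that amplifies interferon production, measured 7.87 and 8.51 in shLuc and 5.78 and 6.27 in shKdm5ABC at day 0 (-2.17, SE 0.33, adjusted p 0.0137). Stat2 was at 9.50 and 9.74 against 8.49 and 8.67 (-1.04, SE 0.14, adjusted p 0.00751), still lower at 4 hours (adjusted p 0.0144), and higher at day 2, at 6.19 and 6.31 against 5.60 and 5.76 (adjusted p 0.0346). Its knockdown difference moved by 1.61 between day 0 and day 2 (SE 0.20, adjusted p 0.0253). The day 2 call of Stat2 between shKdm5ABC and shLuc was lost with any 1 library left out. Zbp1, a sensor of left-handed double-stranded nucleic acid, fell from 5.54 and 6.44 to 3.88 and 3.98 (adjusted p 0.0240). Irf9 was at 8.28 and 8.68 against 7.51 and 8.05 (adjusted p 0.163, and 0.0326 with the block).

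Ptpn6, a phosphatase that dampens JAK signalling, was higher in shKdm5ABC at all 3 times, at 5.34 and 5.26 against 3.96 and 4.07 at day 0 (1.29, SE 0.18, adjusted p 0.00847). The day 2 call of Ptpn6 was lost with any 1 library left out. At day 2, 9 of the 37 pathway genes rose and 0 fell, where 5.66% of transcripts were called higher and 3.34% lower. Among the 9 were the inhibitors Socs1 (1.38, SE 0.21, adjusted p 0.00602) and Socs3 (1.21, SE 0.16, adjusted p 0.00278). Socs1 and Socs3 were named after their values were seen. At day 2 in shLuc 25 of the 37 pathway genes had fallen and 8 had risen, with a median of -1.27, where 27.8% of transcripts had fallen and 27.1% risen. No difference between the pathway list and the members was tested.

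The H3K4me3 columns need care before any value. Columns were joined to groups by their headings, but over 9411 other genes the columns did not follow the RNA of the group they are headed as. The deviation of each heading from the mean of all was correlated with that of each RNA group across genes, which are not independent replicates. Columns headed Control_D0 went best with shLuc day 0 RNA (r 0.53) and KDM5_KD_D2 with shKdm5ABC day 2 (r 0.33), but Control_4h went best with shKdm5ABC day 0 (r 0.62, and -0.14 with its own group). Control_D2 went best with shLuc 4 hours (r 0.49), KDM5_KD_4h with shLuc day 2 (r 0.72, and -0.27 with its own) and KDM5_KD_D0 about equally with shKdm5ABC 4 hours and day 0 (r 0.29 and 0.28). Values below are therefore given for columns by their headings, and no direction of knockdown or time is drawn from them.

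A promoter peak of H3K4me3 was listed for 36 members, with 37 peaks among 10702. Apol9b, Iigp1, Isg15, Oas3, Oasl1, Rsad2, Dtx3l and Psmb9 had none under their name, and the last 2 share a promoter region with Parp9 and Tap1. Member peaks held fewer tags than others, with a median of 333 over the 12 columns against 628 for all promoter peaks, in peaks of like width (medians 2307 and 2400 bp). They also varied more. The highest heading was a median of 4.04 times the lowest for members and 1.42 times for all peaks. The lowest heading was KDM5_KD_4h for 36 of 37 member peaks, as for 33.2% of all peaks, and Control_D2 for Ifi27. Median member tags were 381 under Control_D0, 428 under Control_4h, 283 under Control_D2, 352 under KDM5_KD_D0, 110 under KDM5_KD_4h and 281 under KDM5_KD_D2, while medians of all peaks lay between 564 and 684.

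The 3 members with most tags were Trim25, Tap1 and Parp9. Trim25 (peak at chr11:88859584-88865817, build mm9 as in the table) had 1279 and 1099 tags under KDM5_KD_4h and between 1315 and 2117 under the other headings. Tap1 (chr17:34323552-34327567) had 544 and 632 against 895 to 1431. Parp9 (chr16:35937426-35940011) had 784 and 657 against 784 to 1192, so that its groups all but touched. The ratio of highest to lowest heading was 1.66, 2.28 and 1.47 for these strong promoters, and far greater for weak ones: 14.7 for Ifit3, 20.8 for Oas2 and 26.5 for Ifi44, where the lowest means were 14.6, 8.90 and 1.85 tags. Apol9a had the highest ratio, 83.8, on a mean of 1.27 tags under KDM5_KD_4h.

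Columns headed KDM5_KD_4h were lower than Control_4h for 36 of 37 member peaks, against 34.3% of all peaks, and higher for 0 (1.62%), by a median of -1.74 on the log2(tags + 1) scale where the median over all peaks was -0.23. Trim25 was the exception (-0.35). Against Control_D0 the same columns were lower for 31 and higher for 0 (10.1% and 5.49% of all peaks, with medians -1.38 and 0.03). KDM5_KD_D2 exceeded KDM5_KD_4h for 31 (29.6%) and was lower for 0 (0.0561%), by 1.24 against 0.22 over all peaks, and for 9 after quantile normalization. KDM5_KD_D0 exceeded Control_D2 for 14 (33.1%) and was lower for 0 (0.0374%). This count, in share near the background, became 6 without Control_D2 replicate 1, 9 without KDM5_KD_D0 replicate 2 and 3 after quantile normalization. The pairings of unlike headings were chosen after the data were seen.

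In the other pairs of headings calls went both ways or were few. KDM5_KD_D0 against Control_D0 gave 5 higher (Ifi27, Lgals3bp, Psmb8, Tap1 and Trim25; 32.7% of all peaks) and 6 lower (Ifi44, Ifit1, Mx2, Oasl2, Rtp4 and Usp18; 0.196%). KDM5_KD_D2 against Control_D2 gave 5 higher (23.8%) and Rtp4 lower (0.243%). Control_4h against Control_D0 gave 6 higher (27.8%) and again Rtp4 lower (0.00934%). Control_D2 against Control_D0 gave 0 higher (1.31%) and 7 lower (0.663%), among them Ifit3, Bst2 and Oasl2. With the replicate block the totals of both directions in these 4 pairs went from 11, 6, 7 and 7 to 18, 18, 17 and 27. In that fit 60.5%, 53.1%, 59.3% and 15.4% of all peaks were called, so the first 3 totals (48.6%, 48.6% and 45.9% of member peaks) were under the background. In the first pair the total was 4 without Control_D0 replicate 1 and 5 without KDM5_KD_D0 replicate 1. In the second it was 2 without Control_D2 replicate 1 or KDM5_KD_D2 replicate 2, and 3 without KDM5_KD_D2 replicate 1. In the third it was 1 without Control_D0 replicate 1 and 2 without Control_4h replicate 2. In the fourth it was 0 without Control_D2 replicate 1, 1 without its replicate 2 or Control_D0 replicate 1, and 2 without Control_D0 replicate 2. Quantile normalization moved the median of all peaks from 0.29 to -0.04 in the first of these pairs and from -0.23 to 0.08 in KDM5_KD_4h against Control_4h, where the member median became -1.07. It also changed the split of all calls in the first pair, from 3499 higher and 21 lower to 571 and 213. For KDM5_KD_4h against Control_4h the split went from 173 and 3666 to 1231 and 1588. For KDM5_KD_D2 against Control_D2 it went from 2545 and 26 to 390 and 96.

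**Figure D4:**
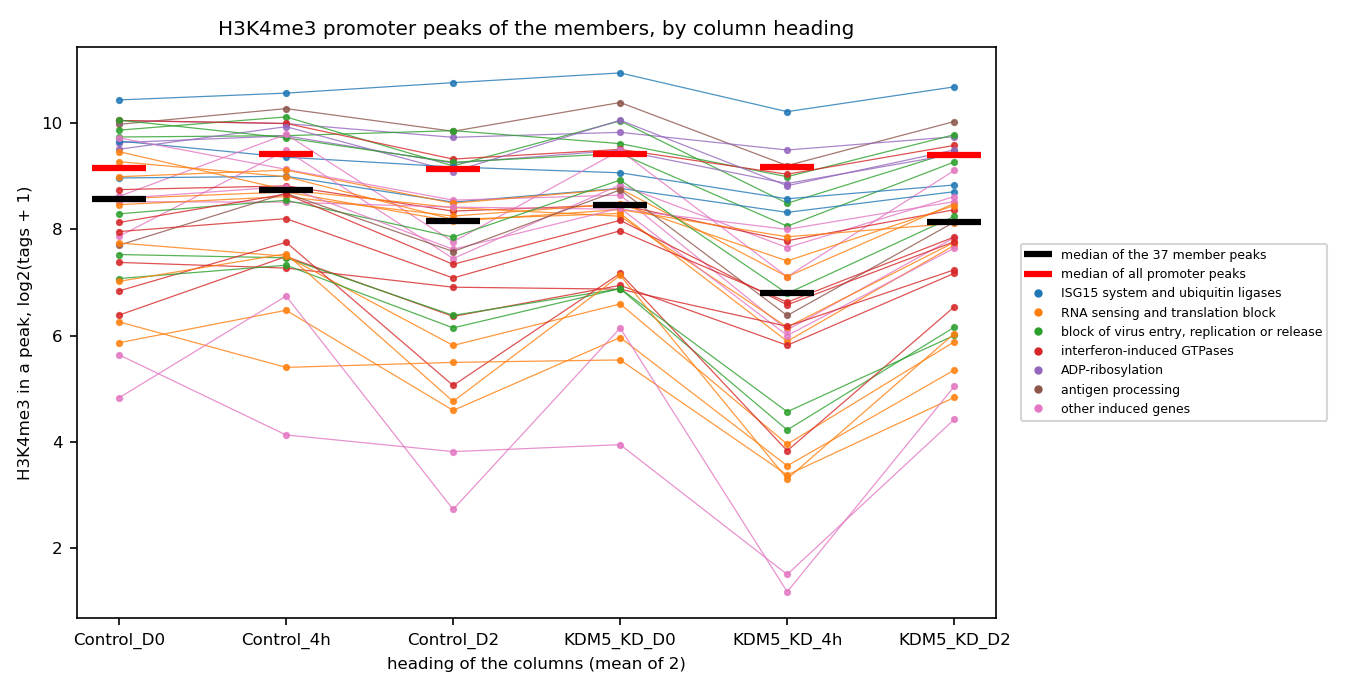
Each line is 1 of 37 H3K4me3 promoter peaks of the members, as log2(tags + 1) of the mean of 2 columns (vertical axis) under each column heading (horizontal axis), coloured by role. Bars are medians of member peaks (black) and all promoter peaks (red), and member peaks dip under KDM5_KD_4h, to a median of 110 tags.

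KDM5A peaks within 1000 bp of the start site were listed for 31 members (32 peaks of 11573). Among tested genes 73.2% of members had one, and 69.8% of all. Member promoters carried less KDM5A than others: a median of 64.4 tags per peak, scaled to a common library total, against 162, with input medians of 8.10 and 11.7. Only 5 peaks lay above the median of all promoter peaks, and the highest, that of Ifit2, was at percentile 72.5. The 5 were those of Ifit2, Dtx3l, Tap1, Trim25 and Bst2. Ifit2 had 304 and 222 tags at day 0, 320 and 240 at 4 hours and 266 and 213 at day 2. Dtx3l had 293 and 166, 259 and 145, and 250 and 197, and Tap1 308 and 110, 219 and 145, and 163 and 166. For Ifit2 and Dtx3l the replicates of each time lay further apart than the means of the times, and for Tap1 this held at day 0 and 4 hours but not at day 2. Recovered library totals ran from 3870724 to 17601432 reads, so low peaks such as Rsad2 (1.55 to 15.5 tags) carry large counting error.

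No member peak passed in KDM5A at 4 hours or day 2 against day 0 in the main limma fit. It called 0 of 32 at both times, against 0.0606% and 0.173% of all 87525 peaks in either direction. Member peaks lie within 1000 bp of a start site, as do only 11573 of all peaks. Shares and medians of all peaks therefore describe mostly other kinds of peak, and those of promoter peaks alone are not given here. At an unadjusted limma p under 0.05 there were 1 and 7 of the 32 member peaks, and 4577 and 5547 of all 87525 peaks. Of all peaks 0.0606% were called higher and 0% lower at 4 hours, and 0.136% and 0.0366% at day 2. The member medians were -0.13 and -0.32, with all peaks at 0.18 and 0.37. These medians rest on single libraries. At 4 hours the member median was 0.31 without day 0 replicate 1, 0.23 without 4 hour replicate 2, -0.41 without 4 hour replicate 1 and -0.58 without day 0 replicate 2. At day 2 it was 0.00033 without day 0 replicate 1 and -0.66 without day 0 replicate 2. At day 2 the value nearest the threshold was that of Ifit3, with 19.5 and 18.2 tags at day 0 and 2.27 and 2.32 at day 2 (-2.59, SE 0.78, adjusted p 0.160). The edgeR quasi-likelihood test on recovered reads called 5 lower at day 2 and 0 at 4 hours. Limma with the block called 3 and 0, and limma after quantile normalization 3 and 1. In these fits 1.16%, 0.96% and 0.939% of all peaks were called in either direction at day 2. At 4 hours the shares were 0.0503%, 0.823% and 0.221%. Quantile normalization took the all-peak medians to -0.02 at 4 hours and 0.0031 at day 2. It took the split of day 2 calls from 119 higher and 32 lower to 280 and 542.

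KDM5C at day 2 was listed within 1000 bp of 6 members: Isg15, Ifi27, Ifi35, Rtp4, Dtx3l and Trim25. That is 14.6% of tested members and 14.1% of tested genes. Their peaks were of ordinary height, with a median of 20.4 tags against 19.5 for all promoter peaks. Isg15 had the lowest, with 10.2 and 12.3 tags, and Dtx3l the highest, with 30.5 and 13.5.

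**Figure D5:**
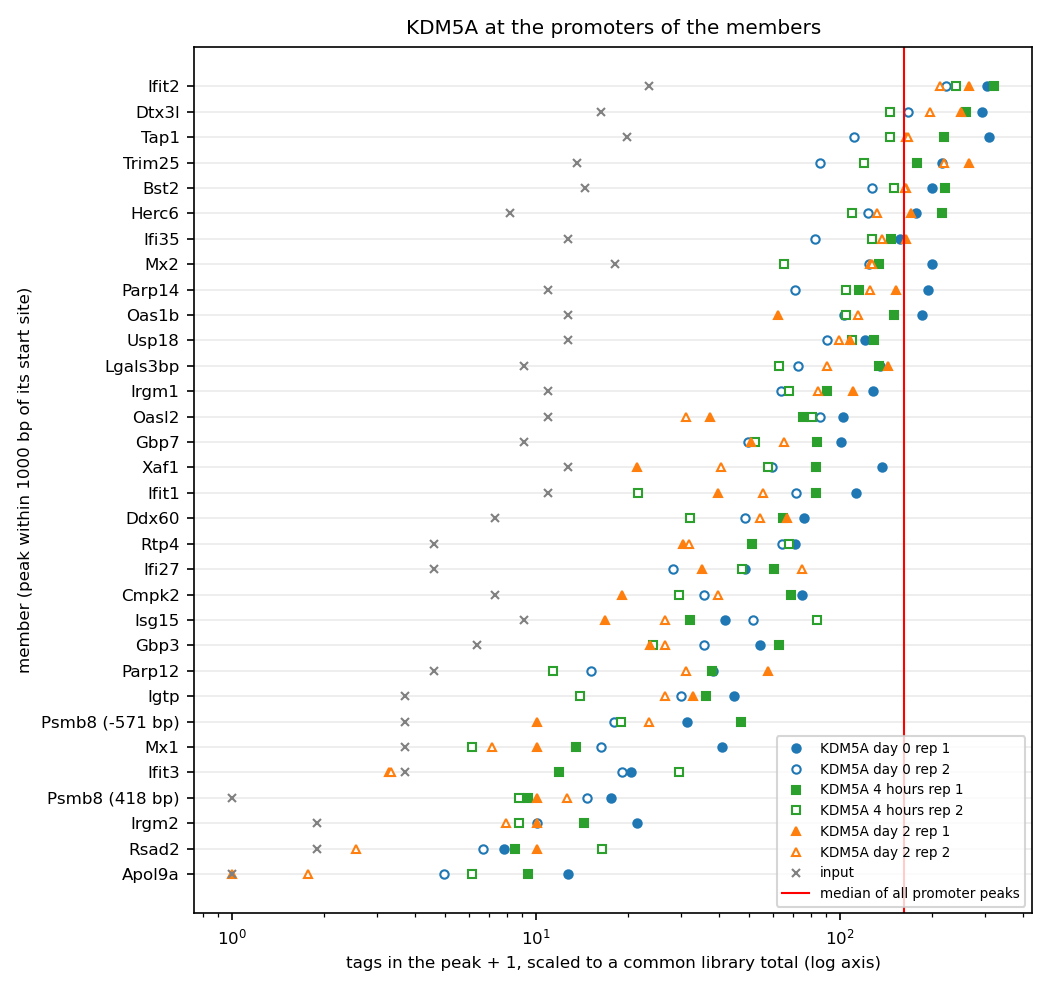
Points are tags + 1 (log axis) of each of the 32 KDM5A promoter peaks of the members in 6 KDM5A libraries (colour and shape by time, filled for replicate 1) and in input (crosses). Most peaks lie left of the red line, the median of 162 tags over all promoter peaks. The day 0 and day 2 libraries overlap for most peaks, but not for Ifit3, among others.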

How the data were processed

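RNA values are log2 normalized tags per kb of transcript as deposited by the authors, from -7.52 to 15.56. Values of low genes look moderated, a step not given in the sources used here, and their depth cannot be recovered. Bowtie2 0.12.8, Subread, DESeq2, STAR and HOMER with build mm9 are named in the submitters' processing notes. Chromatin tables hold the authors' deposited signal, tags per peak scaled to a common total. Whole reads (within 0.1 read) came back for 100% of values in the KDM5A, KDM5C and input columns and in 4 of 12 H3K4me3 columns, giving libraries of 2946691 to 17601432 reads.

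Columns were assigned by their headings. RNA was tested for 13534 of 17515 transcripts, and tags as log2(tags + 1), with limma 3.58.1 in R 4.3.3: 1 fit per assay over group means with a mean-variance trend, two-sided, with Benjamini-Hochberg adjustment over all features. Alternatives were a replicate block, quantile normalization, other filters and pseudocounts, fits of the compared groups alone, each library left out, and for KDM5A edgeR 4.0.16. Scripts were tested on simulated data. With 2 libraries against 2 an exact permutation test cannot go below p = 0.333.

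Libraries sharing an experiment number deviated together, with correlations from 0.381 to 0.657 over 15 pairs of RNA groups and from 0.504 to 0.790 for H3K4me3. For KDM5A they ran from 0.0470 to 0.333, and its numbers were not taken as pairs.

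The members and lists were chosen with earlier results of these data known. Members given per library were the 2 of highest level in each role, the 3 with the smallest and the 3 with the largest p at day 0, those called against the list, and the 3 with most tags; pathway genes were those of smallest p and selected STAT and IRF factors. Some listed genes are not reported here. Members called between H3K4me3 headings are given by name and count, since the headings went against the RNA. Other genes are named to complete a count or after their values were seen. The strand used in counting is not given, and the sample titled as virus input was not analysed here.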

Additional observations from a re-analysis of the deposited data

Results flagged for a closer look

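The knockdown difference in RNA was itself different at day 2 and at day 0 for 7 members, by the interaction term of the limma fit. That fit called 0.31% of all transcripts. The change in the difference (log2 scale) was 3.30 for Rsad2, 2.51 for Oas1b, 2.45 for Ifit3, 2.17 for Parp14, 2.10 for Isg15, 1.94 for Bst2 and 1.85 for Irgm1, with adjusted p-values between 0.0253 and 0.0478. The number of such members was 0 when any library other than shKdm5ABC day 2 replicate 2 was left out. Rsad2, Oas1b, Ifit3 and Parp14 were at low levels at day 2 in both conditions, and the part of this was not tested.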

How the results depend on the processing

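Counts below are members called in either direction. In RNA, knockdown calls at day 0, 4 hours and day 2 went from 18, 11 and 2 to 35, 29 and 11 with the replicate block. They went to 3, 0 and 0 in fits of the compared groups alone (0.0813%, 0% and 0.185% of all transcripts). The main fit called 1.51%, 1.44% and 9.0% of all transcripts, and the block 9.44%, 9.68% and 28.1%. The day 2 count with the block (26.8% of members) was thus near the background. Without a filter on low values the day 0 and 4 hour counts were 10 and 3. After quantile normalization the 4 hour and day 2 counts were 7 and 0 (0.968% and 6.98% of transcripts). The change of the difference from day 0 to day 2 went from 7 (0.31% of transcripts) to 31 with the block (7.67%) and 4 after quantile normalization (0.207%). It was 0 without the filter, 3 without the trend (0.177%) and 2 with the compared groups alone (0.0665%). Leaving out 1 library gave 2 to 13 at day 0, 0 to 4 at 4 hours, 0 to 1 at day 2 and 0 to 6 for that change.

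For H3K4me3 headings the block gave 18 in KDM5_KD_D0 against Control_D0, 18 in KDM5_KD_D2 against Control_D2, 17 in Control_4h against Control_D0 and 27 in Control_D2 against Control_D0, and leaving out 1 library gave 4 to 10, 2 to 5, 1 to 6 and 0 to 2. In the block fits 60.5%, 53.1%, 59.3% and 15.4% of all peaks were called in these 4 pairs. For KDM5_KD_D0 against Control_D2 leaving out 1 library gave 6 to 13, with 3 after quantile normalization (5.83% of all peaks). For KDM5_KD_D2 against KDM5_KD_4h quantile normalization gave 9 (8.65%). KDM5A at day 2 gave 3 with the block (0.96% of all peaks), 3 after quantile normalization (0.939%) and 5 in edgeR (1.16%). At 4 hours it gave 1 after quantile normalization (0.221%).

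Signs turned after quantile normalization for H3K4me3 at Ifi35 (0.16) and Gbp3 (0.37) in KDM5_KD_4h against Control_4h, and at Gbp7 (-0.078), Ifi35 (-0.052), Gbp3 (-0.23), Gbp2 (-0.017) and Mx1 (-0.17) in KDM5_KD_D2 against KDM5_KD_4h. In RNA they turned for Apol9a at day 0 (-0.0066) and Apol9b at 4 hours (-0.021) and day 2 (-0.060), none of them called. With 1 library left out, uncalled differences ran on both sides of 0 for Apol9a (-0.27 to 0.35 at day 0, -0.16 to 0.68 at 4 hours), Apol9b (-0.61 to 0.21 at day 0, -0.36 to 0.57 at 4 hours, -0.027 to 0.36 at day 2), Irf7 (-0.60 to 0.44 at day 2) and Ifit3 (-0.24 to 0.14 at day 2). Over the single RNA values of named genes, leaving out a library kept 818, lost 230 and turned 12. The cause was not tested. edgeR was not run for H3K4me3, whose reads came back for 4 of 12 columns only. With 2 libraries a group and no block, differences under about the replicate gap of a member are hard to reach. With the block some such differences passed, as for Igtp at 4 hours. The depth of the RNA libraries is unknown.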
